A study of Mus musculus with 26 samples.

Results

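A set of 10 genes that read out Hedgehog and retinoic acid signalling were followed in mouse motor neuron spheroids. They were chosen by symbol, as targets and components of the pathways that purmorphamine and retinoic acid act on, and 10 of the 56941 genes in the deposited tables carried one of these symbols. The Hedgehog genes were Ptch1, Gli1, Gli2, Hhip and Smo. The retinoic acid genes were Rara, Rarb, Cyp26b1, Dhrs3 and Crabp2.

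All spheroids derived from the mouse embryonic stem cell line HBG3, whose HB9 (Mnx1) promoter drives GFP. The cells were expanded on feeder cells. The labels give its genotype as heterozygous. Every group, controls included, was differentiated with purmorphamine and retinoic acid, received CNTF and GDNF from day 5 and was seeded on fibrin at about day 8, so no group in the series lacked either inducer. Of the 26 libraries, 4 came from spheroids on a magnetic array moved at 4 Hz for 30 min daily (actuated) and 4 from spheroids on the same kind of array that was never moved (static). Another 6 came from a group labelled high intensity and 6 from a group labelled low intensity, in the arm of the study that gave muscle-conditioned medium, and 6 were biochemical controls. The labels do not tie high and low intensity to stimulated or resting muscle, so the groups are named by intensity only. The labels also do not say that replicates were separate cultures, and p-values then measure only the spread between these samples.

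Hedgehog ligands bind the receptor PTCH1, which otherwise holds the membrane protein SMO inactive. Active SMO, which purmorphamine engages directly, lets the GLI transcription factors switch on targets that include Ptch1, Gli1 and Hhip, and in the developing spinal cord this signal patterns the ventral progenitors that give rise to motor neurons. Retinoic acid binds nuclear receptors (RAR with RXR) at paired DNA repeats, induces genes that include Rarb, Dhrs3 and the Cyp26 enzymes that remove it, and in the spinal cord promotes neuronal differentiation.

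The best known of those repeats is in the promoter of Rarb itself. Of the 10 genes, 8 had a promoter window in the RefSeq table (build GRCm38.p6, 250 bases before to 50 after a start site), in 13 windows in all. The genome build behind the deposited values is not tied to this table, which was used for sequence only. A retinoic acid response element of the DR5 type, which is a pair of direct repeats 5 bases apart, was found in the Rarb window, 53 to 37 bases before the start site. The 120 bases before that start site, chr14:16575477-16575596 on the minus strand, are shown because they carry this element, in capitals:

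Rarb: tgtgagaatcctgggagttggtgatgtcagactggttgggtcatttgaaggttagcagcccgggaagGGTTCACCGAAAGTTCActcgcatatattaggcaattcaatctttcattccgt

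A DR5 match on either strand was present in 32 of 32851 windows of all genes (0.0974%). The DR2 type, with repeats 2 bases apart, was present in 88 windows (0.268%) and in none of those of the 8 genes. The GLI sequence GACCACCCA was present in 83 windows (0.253%) and its first 8 bases, GACCACCC, which lie inside it, in 265 (0.807%); neither was in a window of the 8 genes. A match is a description of these letters only.

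Levels are given as CPM, a gene's counts per 1000000 counts of the library, scaled between libraries by TMM, over the 21 libraries with more than 1000000 counts on protein-coding genes (4 actuated, 3 static, 4 high intensity, 5 low intensity and 5 control). Their totals ranged from 7269276 to 9839951 counts (actuated), from 7724923 to 13162635 (static) and from 1551334 to 3971348 (the other groups). A count of 0 allowed up to 0.413 CPM in an actuated library and up to 1.93 CPM in a low-intensity library, counting error only. The other 5 libraries (static 3, high intensity 4 and 5, low intensity 6 and control 4) held at most 70 counts of any of the 10 genes. Low intensity 6 held 0 counts of all 10, and high intensity 4 held 33 counts of Ptch1 and 0 of the other 9. Neuronal transcripts were present in all 21 libraries (Tubb3 from 407 to 734 CPM), whereas Mnx1 ranged from 2.38 to 17.8 CPM and the astrocyte gene Gfap from 1216 to 2901 CPM.

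Each gene was tested with the quasi-likelihood F-test of edgeR in 5 comparisons, with 1 estimate of spread over all groups and adjustment over all 14730 genes fitted. All 10 genes were fitted. None passed an adjusted p of 0.05 in any comparison, that is in 0 of 50 tests. Over all genes, 0.0% were called between actuated and static arrays, 0.462% between high intensity and control, 0.597% between low intensity and control, 0.0% between high and low intensity and 0.713% between static array and control. At these shares a count of 0 among 10 genes was near the background. Of the 50 tests, 5, on Gli2, Dhrs3 and Crabp2, had an unadjusted p under 0.05, and DESeq2 also called 0 of the 10 in each comparison. Over all genes, an unadjusted p under 0.05 was reached by 56 (0.38%) for actuated against static, 2349 (15.9%) for high intensity, 2237 (15.2%) for low intensity and 1850 (12.6%) for static array against control, and 1131 (7.68%) for high against low intensity. In the 2 comparisons where edgeR called 0 genes, DESeq2 called 3 (actuated against static) and 45 (high against low intensity). In all 5 comparisons the CPM ranges of both groups overlapped for each of the 10 genes, where 4.33%, 3.56%, 2.25%, 2.63% and 8.14% of all genes, in the same order, did not overlap. The 3 comparisons with the control share its libraries, and the static and intensity groups also recur. Static array against control also crosses the mechanical and biochemical arms of the study. Deeper static libraries held 7724923 to 13162635 counts and deeper controls 2273487 to 3771637. In that comparison the array, the arm and the depth cannot be told apart.

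**Figure D1:**
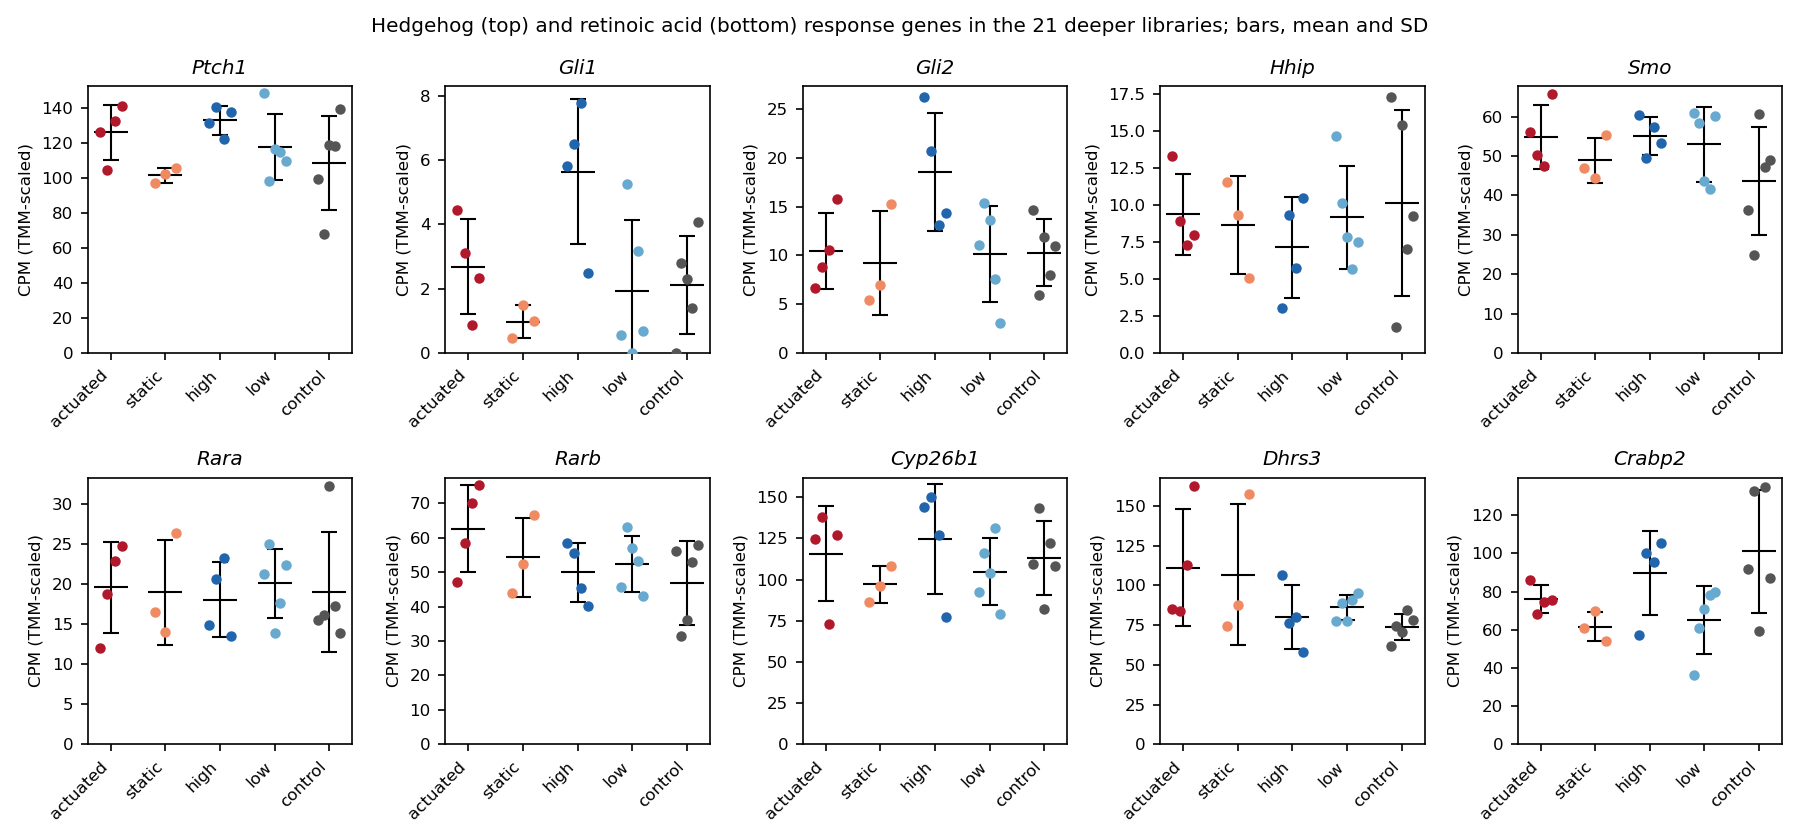
CPM (vertical axis, from 0) of the 10 genes in each of the 21 deeper libraries, by group; points are libraries and bars the mean and SD. In each of the 5 comparisons tested, the groups overlap for every gene. High intensity and static were not compared, and their ranges are apart for Ptch1 and Gli1. Among genes with a mean above 10 CPM in every group, the widest gap between group means is that of Crabp2. Its mean is 101 CPM in controls against 61.6 on the static array.

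Compared per transcript length, as TPM, the genes covered a wide range. The median over the 21 libraries was highest for Crabp2 at 112 TPM, followed by Dhrs3 at 74.5, Rarb at 36.1, Ptch1 at 34.1 and Cyp26b1 at 29.3 TPM. Smo stood at 16.4, Rara at 8.21, Gli2 at 2.88, Hhip at 1.01 and Gli1 at 0.666 TPM. Neighbours in this order overlapped in their ranges over libraries, for example Rarb from 19.6 to 53.0 TPM and Ptch1 from 14.6 to 72.2 TPM.

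**Figure D2:**
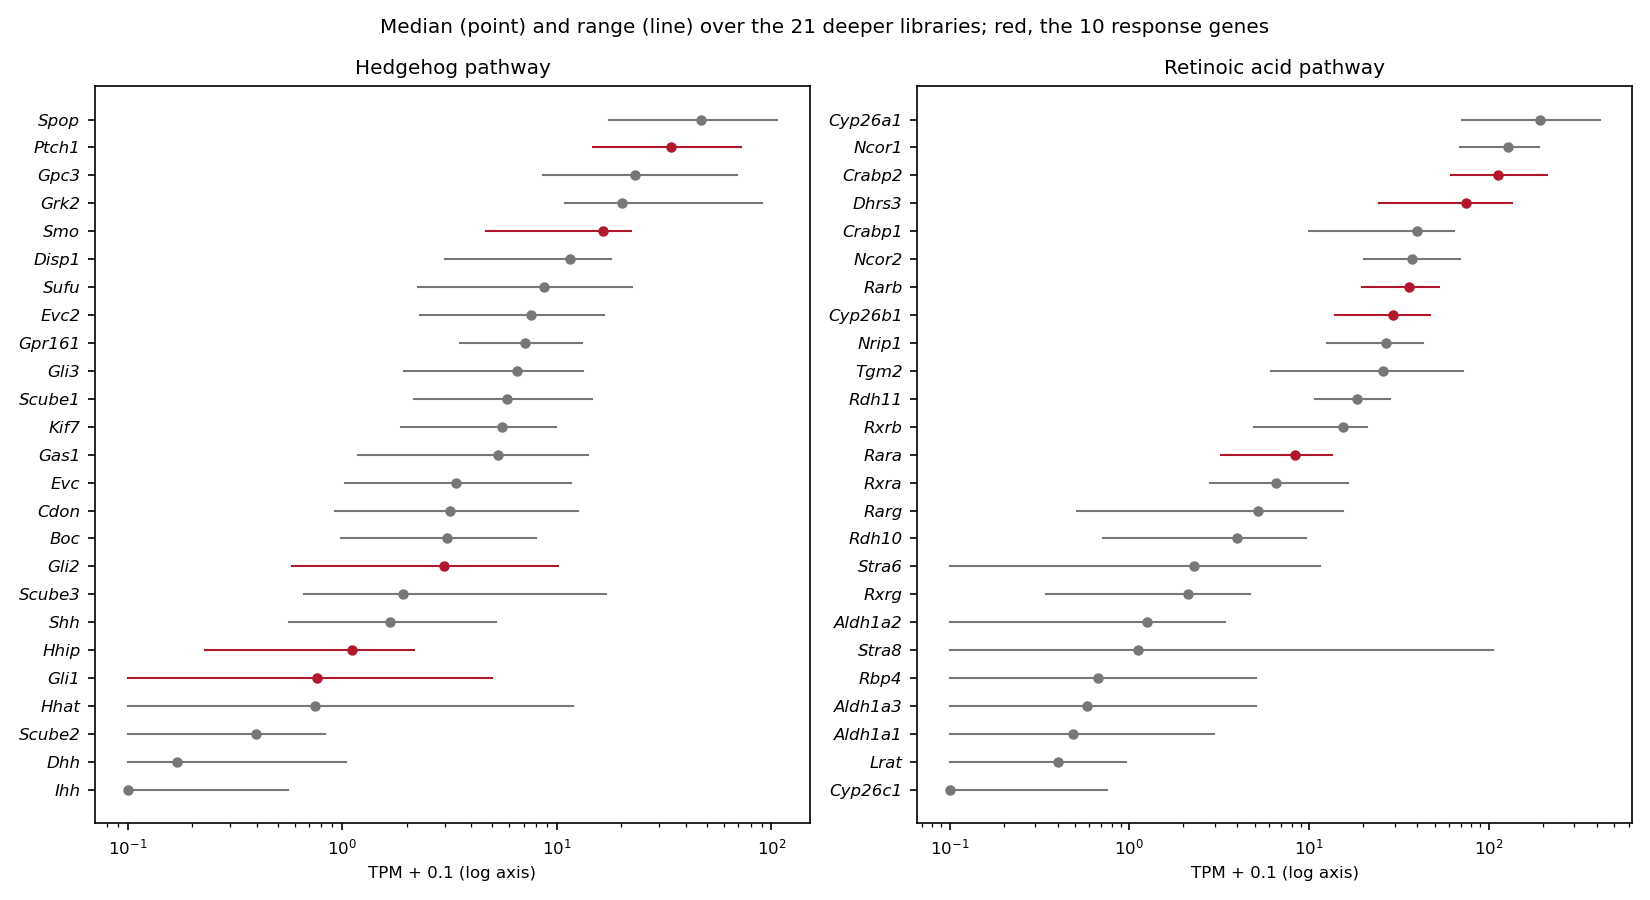
Median (point) and range (line) of TPM + 0.1 over the 21 deeper libraries, on a log axis, for genes of each pathway; red marks the 10 genes. Crabp2, with a median of 112 TPM, and Ptch1, with 34.1 TPM, are the highest of their red genes, and Gli1 reaches 0.

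Among the Hedgehog genes, Ptch1 encodes the receptor and is itself a GLI target. Its CPM was 126, 104, 132 and 141 in actuated libraries 1 to 4 and 97.0, 102 and 106 in static libraries 1, 2 and 4. It was 131, 141, 122 and 137 at high intensity (libraries 1, 2, 3 and 6), 149, 98.5, 116, 115 and 110 at low intensity (1 to 5) and 99.5, 68.0, 119, 118 and 139 in controls (1, 2, 3, 5 and 6). Of the actuated libraries, 3 lay above all static ones and the fourth inside their range. The high-intensity libraries lay in the upper part of the control range or, for library 2, just above it, and control 2 was the lowest of the 21. The log2 fold change was 0.31 (SE 0.17, 95% interval -0.04 to 0.66) for actuated against static and 0.29 (SE 0.15, interval -0.03 to 0.60) for high intensity against control, with edgeR adjusted p of 1 and 0.367. Against control it was 0.11 (interval -0.19 to 0.41) at low intensity and -0.10 (interval -0.44 to 0.24) on the static array. The interval for actuated against static ran from 0.974-fold to 1.58-fold.

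Smo encodes the transducer that purmorphamine binds. Its CPM was 56.1, 50.1, 47.3 and 65.7 in actuated libraries, 47.0, 44.3 and 55.2 in static libraries and 60.3, 49.5, 57.2 and 53.2 at high intensity. Low-intensity libraries held 60.9, 58.4, 43.6, 41.7 and 60.2 CPM and controls 36.2, 24.9, 60.8, 47.3 and 49.0 CPM. The controls spread most and included both the lowest library and one of the highest. On the log2 scale the difference was 0.34 (SE 0.19, interval -0.05 to 0.73) for high intensity and 0.29 (SE 0.18, interval -0.08 to 0.66) for low intensity against control, with edgeR adjusted p of 0.399 and 0.473.

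Gli2 encodes the GLI factor that carries most of the activating signal. Its CPM was 26.2, 20.7, 13.1 and 14.3 at high intensity, 14.7, 5.96, 11.9, 7.95 and 11.0 in controls and 11.1, 15.4, 13.6, 7.59 and 3.06 at low intensity. Actuated libraries held 6.66, 8.83, 10.6 and 15.8 CPM and static ones 5.43, 6.99 and 15.3 CPM. The mean was 18.6 ± 6.09 CPM (SD, n = 4) at high intensity against 10.3 ± 3.41 (n = 5) in controls and 10.1 ± 4.92 (n = 5) at low intensity; high-intensity libraries 1 and 2 exceeded every other library, and libraries 3 and 6 lay within both other ranges. In log2 terms the difference was 0.84 (SE 0.40, interval 0.03 to 1.66, unadjusted p = 0.0431) against control and 0.87 (SE 0.40, interval 0.05 to 1.69, unadjusted p = 0.0391) against low intensity. The edgeR adjusted p was 0.294 and 0.619, so neither passed.

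Gli1 encodes the GLI factor that is the usual transcriptional readout of the pathway, and it had the lowest median TPM of the 10. Its counts were 34, 33, 8 and 19 in actuated libraries, 4, 20 and 8 in static, 23, 16, 19 and 9 at high intensity, 2, 14, 0, 5 and 2 at low intensity and 0, 8, 6, 3 and 14 in controls. In CPM the high-intensity libraries held 5.80, 6.49, 7.77 and 2.48, and 3 of the 4 exceeded every other library. The control libraries reached 4.06 CPM and the low-intensity libraries 5.24 CPM. The fitted difference (log2) was 1.39 (SE 0.86, interval -0.39 to 3.17) for high intensity against control, 1.59 (SE 0.88, interval -0.23 to 3.40) for high against low intensity and 1.42 (SE 0.98, interval -0.60 to 3.44) for actuated against static. The edgeR adjusted p values were 0.458, 0.699 and 1, and the last interval, from 0.658-fold to 10.9-fold, shows the precision these counts give.

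Hhip encodes a decoy that binds Hedgehog ligands and is induced by the pathway. Its CPM was 3.03, 9.32, 5.72 and 10.5 at high intensity and 17.3, 1.75, 15.4, 7.02 and 9.27 in controls. It was between 5.05 and 14.7 CPM in the actuated, static and low-intensity libraries. The group means ran from 7.14 ± 3.40 CPM (SD, n = 4) at high intensity to 10.1 ± 6.30 (n = 5) in controls, where Ptch1, Gli1 and Gli2 had positive values for the same pair of groups. High intensity against control gave -0.52 on the log2 scale (SE 0.47, interval -1.50 to 0.46), at an edgeR adjusted p of 0.646.

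Among the retinoic acid genes, Rara and Rarb encode nuclear receptors. Rara CPM was 12.01, 18.8, 23.0 and 24.8 in actuated and 16.5, 14.1 and 26.4 in static libraries, and between 13.5 and 32.3 in the other 3 groups. Its group means, from 18.1 CPM at high intensity to 20.1 CPM at low intensity, were the closest of the 10 genes. The 5 log2 fold changes lay between -0.17 and 0.09, and the widest of their intervals, that of actuated against static, ran from -0.57 to 0.68.

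Rarb, whose promoter holds the element printed above, had a CPM of 47.0, 58.3, 70.0 and 75.2 in actuated libraries, 44.0, 52.2 and 66.4 in static libraries and 56.1, 31.5, 36.1, 52.9 and 58.0 in controls. High-intensity libraries held 58.5, 55.5, 45.4 and 40.2 CPM and low-intensity ones 45.6, 62.9, 56.9, 53.1 and 43.2 CPM. Control libraries 2 and 3 were the lowest of the 21. The log2 fold change was 0.21 for actuated against static (SE 0.21, interval -0.22 to 0.64) and 0.20 for static against control (SE 0.20, interval -0.22 to 0.63), with edgeR adjusted p of 1 and 0.742.

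Cyp26b1 encodes an enzyme that clears retinoic acid. Its CPM was 124, 138, 73.3 and 127 in actuated and 86.4, 96.3 and 108 in static libraries, and 144, 150, 127 and 77.1 at high intensity. Low-intensity libraries ranged from 79.2 to 132 CPM and controls from 82.3 to 144 CPM. One library of the actuated group (3) and one of the high-intensity group (6) were the lowest of all. The 5 log2 fold changes ran from -0.22 (static against control, SE 0.21) to 0.25 (high against low intensity, SE 0.20).

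Dhrs3 encodes a retinaldehyde reductase that limits retinoic acid formation. Its CPM was 85.2, 83.8, 113 and 163 in actuated libraries, 74.7, 87.9 and 158 in static libraries and 61.8, 74.3, 70.8, 84.2 and 78.3 in controls. High-intensity libraries held 106, 76.2, 80.1 and 58.1 CPM and low-intensity ones 77.7, 89.1, 77.3, 91.0 and 95.2 CPM. Actuated 4 and static 4 stood apart from every other library, followed by actuated 3. Static against control gave a log2 fold change of 0.53 (SE 0.22, interval 0.08 to 0.99, unadjusted p = 0.0242, edgeR adjusted p = 0.302), and the value of actuated against static was 0.06 (SE 0.23, interval -0.41 to 0.53). Without static 4 the value against control was 0.15, and without actuated 4 that against static was -0.18.

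The libraries in which Dhrs3 was high were also high for some of the other genes and not for others. Actuated 3, actuated 4 and static 4 were the highest of the 7 array libraries for Dhrs3, Rara, Rarb and the Hedgehog gene Gli2. Of the other retinoic acid genes, Cyp26b1 in actuated 3, at 73.3 CPM, was the lowest of all 21 libraries, and Crabp2 in static 4, at 54.1 CPM, was the lowest of the 7. The 3 libraries were the highest for Cyp26a1, a retinoic acid clearing enzyme, which stood at 570, 579 and 532 CPM there and at 318, 305, 294 and 321 CPM in actuated 1 and 2 and static 1 and 2. In the same 3 libraries Gfap was 2901, 2829 and 2625 CPM, against 1823 to 2290 CPM in the other 4, and Mki67, a gene of dividing cells, was 203, 193 and 208 CPM against 135 to 166. This pattern crosses the actuated and static labels and was noticed after the values were seen. No batch is named in the labels, and the part of glial or dividing cells in it was not tested. In bulk libraries, fewer cells of a type and less RNA per cell cannot be told apart.

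**Figure D3:**
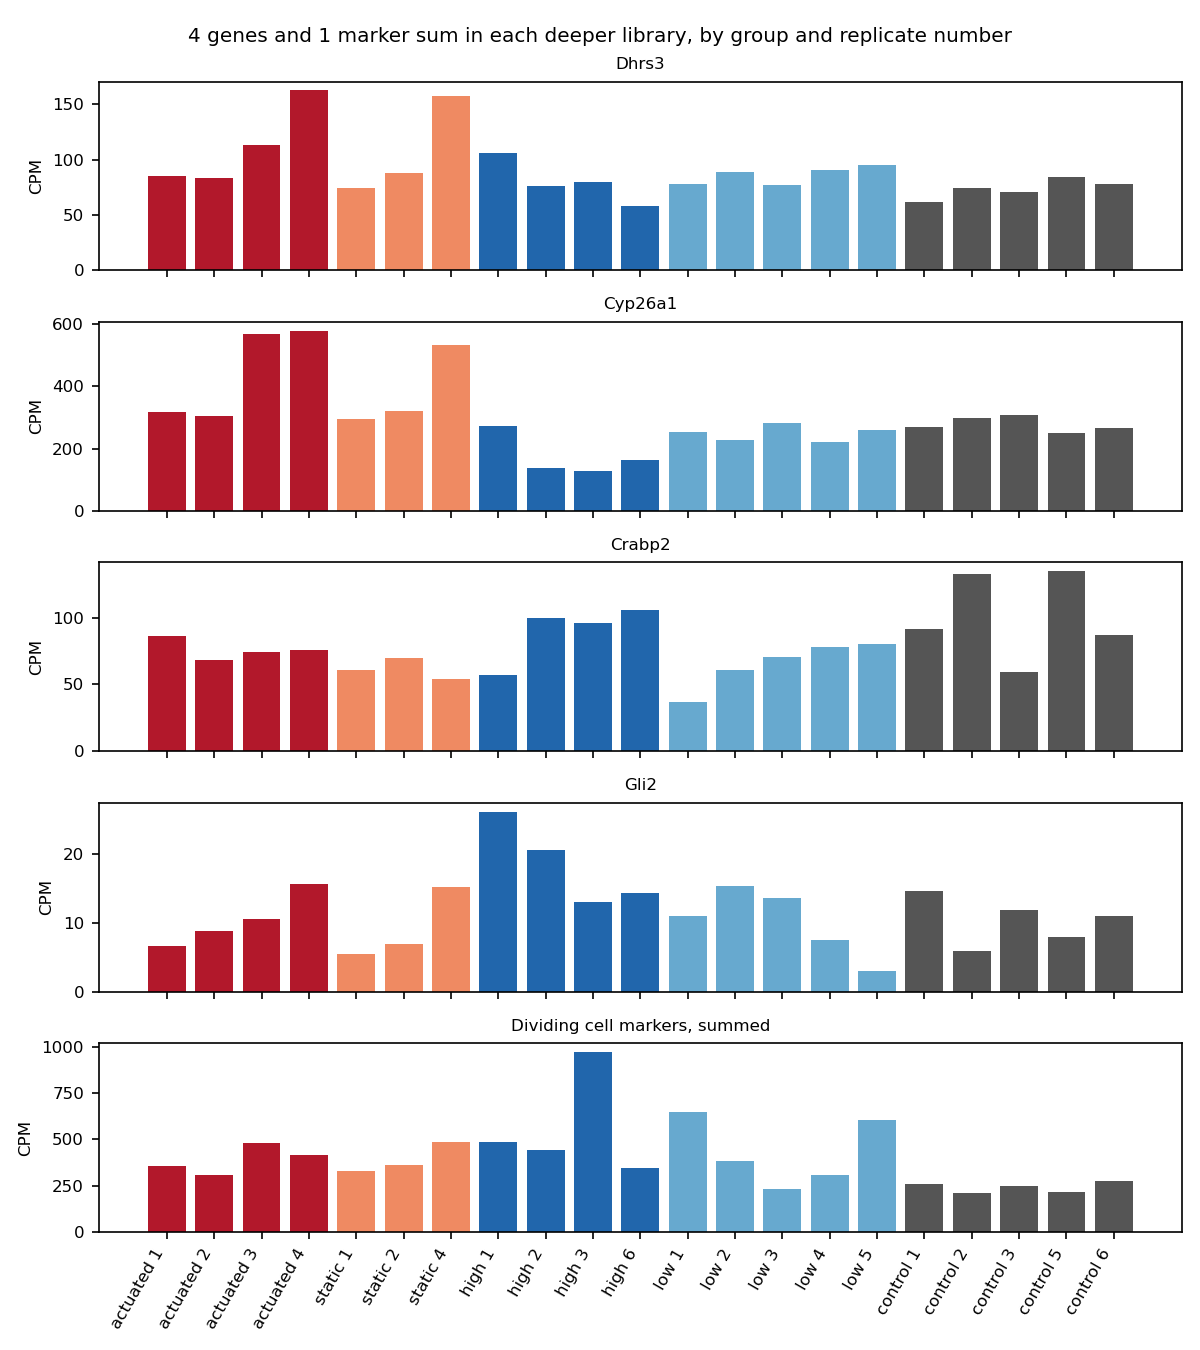
CPM (vertical axes, from 0) of Dhrs3, Cyp26a1, Crabp2 and Gli2 and the summed CPM of 6 dividing-cell markers in each deeper library, by group and replicate number; bars are single libraries. Dhrs3 is highest in actuated 4 and static 4, Cyp26a1 in actuated 3 and 4, Crabp2 in control libraries 2 and 5, and Gli2 in high-intensity libraries 1 and 2.

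Crabp2 encodes the protein that carries retinoic acid to its nuclear receptors and was the most abundant of the 10 by TPM. Its CPM was 91.7, 133, 59.6, 135 and 86.9 in controls, 36.5, 61.1, 70.8, 78.4 and 79.9 at low intensity and 61.2, 69.6 and 54.1 on the static array. High-intensity libraries held 57.0, 100, 95.7 and 106 CPM and actuated ones 86.3, 68.2, 74.4 and 75.6 CPM. Control 3 lay within the low-intensity and static ranges, while the other 4 controls exceeded every library of both groups. The mean was 101 ± 32.2 CPM (SD, n = 5) in controls, 65.3 ± 17.8 (n = 5) at low intensity and 61.6 ± 7.77 (n = 3) on the static array. The log2 fold change against control was -0.64 at low intensity (SE 0.21, interval -1.07 to -0.20, unadjusted p = 0.00615) and -0.71 on the static array (SE 0.24, interval -1.21 to -0.21, unadjusted p = 0.00704). The edgeR adjusted p was 0.137 and 0.182, and neither passed. Without the filter on low counts both passed, with edgeR adjusted p of 0.00538 and 0.0449, and Dhrs3 passed for static against control with 0.0301; the cause was not tested. For high intensity against control the value was -0.18 (SE 0.22, interval -0.63 to 0.28). The low-intensity and static differences are read against the same 5 control libraries. With limma on log2(TPM + 1) they were 0.12 at low intensity and -0.07 on the static array (limma adjusted p = 0.764 and 0.911). Relative to the median change over all genes on that scale they were -0.45 and -0.53.

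**Figure D4:**
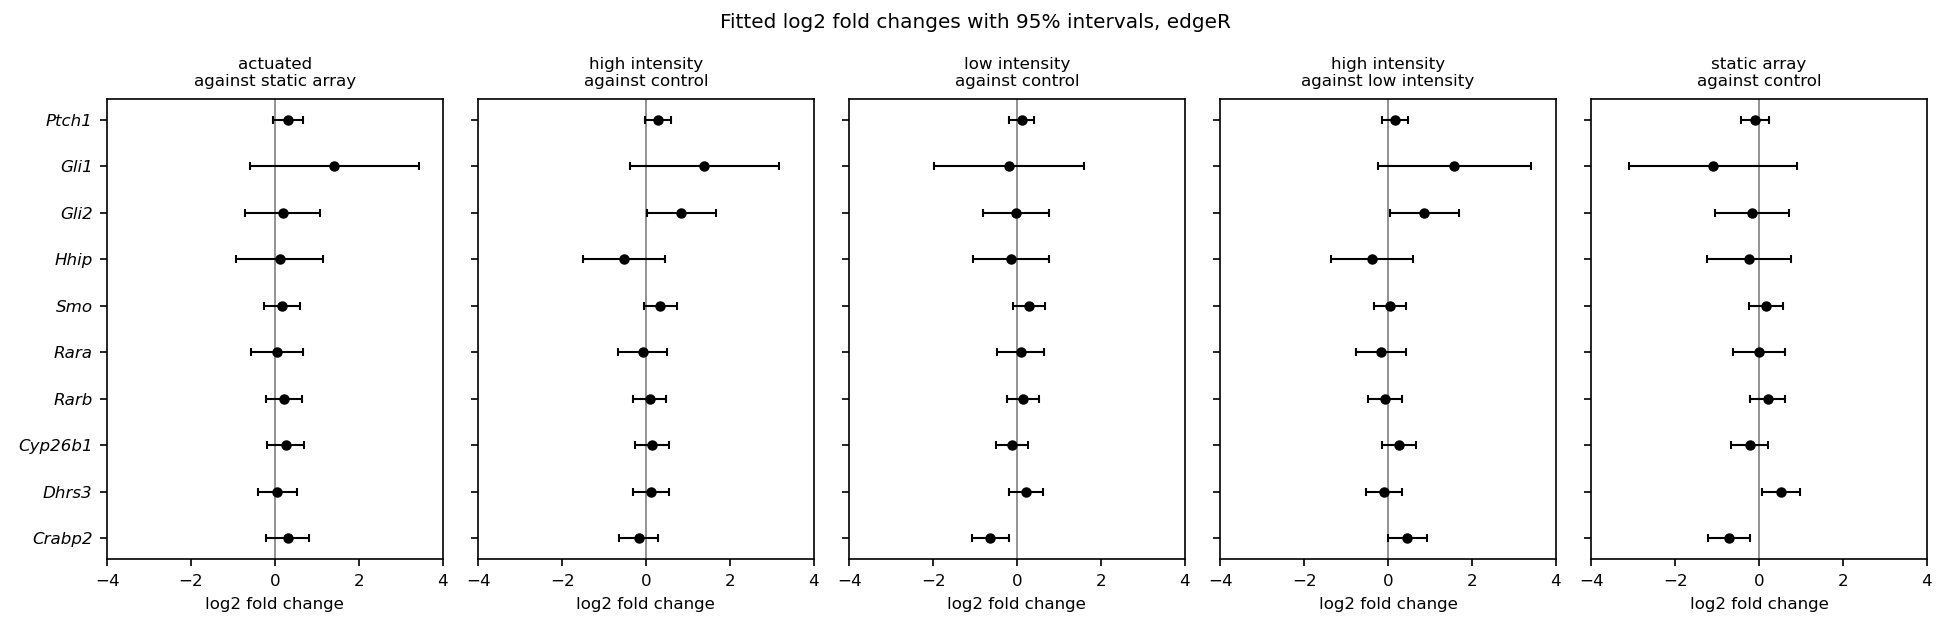
Fitted log2 fold changes (horizontal axis) of the 10 genes in the 5 comparisons, with 95% intervals from edgeR; the vertical line marks no difference. The intervals of Gli2 (high intensity against control and against low intensity), Crabp2 (low intensity and static against control) and Dhrs3 (static against control) lie off 0, and those of Gli1 are the widest.

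By comparison, all 10 genes had a positive log2 fold change between actuated and static arrays, with a median of 0.20 and a range of 0.05 to 1.42, where the median over all genes was 0.00. None passed the test, and Gli2, Hhip, Rara and Dhrs3 changed sign when some single libraries were left out. With all 26 libraries Gli2 was -0.30 and Hhip -0.31. Positive values numbered 7 of 10 between high intensity and control (median 0.13), 5 of 10 between low intensity and control (median 0.03), 6 of 10 between high and low intensity (median 0.11) and 3 of 10 between static array and control (median -0.14), and the medians over all genes lay between -0.01 and 0.01.

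No gene in the rest of either pathway was called. Of 21 other Hedgehog genes 18 were fitted, and of 21 other retinoic acid genes 16; 0 of these passed in any of the 5 comparisons with edgeR. At an unadjusted p under 0.05, reached by 15.9% of all genes at high intensity and 12.6% on the static array against control, the 18 Hedgehog genes gave 3 higher and 0 lower at high intensity against control, and 0 higher and 3 lower on the static array against control. The 16 retinoic acid genes gave 5 higher and 2 lower at high intensity and 2 higher and 1 lower on the static array.

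Of the ligands, Shh ranged from 1.22 to 15.0 CPM, whereas Ihh had at most 3 counts and Dhh at most 6 in any library. Shh CPM was 2.71, 2.16 and 2.34 on the static array and 6.61, 5.26, 8.46, 15.0 and 3.77 in controls. These ranges did not overlap, which was also so for 8.14% of all genes in that comparison. The log2 difference of static against control was -1.68 (SE 0.58), at an edgeR adjusted p of 0.186. Gli3, which acts mainly as a repressor, was 31.3, 23.9, 44.1 and 20.9 CPM at high intensity and 9.83 to 22.1 CPM in controls, a log2 difference of 0.74 (SE 0.25) with an edgeR adjusted p of 0.134. At low intensity the difference from control was 0.59 (SE 0.24), with an edgeR adjusted p of 0.217. Of the ligand co-receptors, Gas1 gave a log2 difference of 0.98 (SE 0.37) for high intensity against control, Cdon 0.50 (SE 0.43) and Boc 0.10 (SE 0.35). Sufu, which restrains the GLI factors, had 0.70 (SE 0.34), with edgeR adjusted p of 0.180, 0.614, 0.922 and 0.314 in this order.

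Cyp26a1 was the most abundant retinoic acid gene by TPM, with a median of 193 TPM over the 21 libraries. At high intensity it was 273, 138, 129 and 162 CPM, and in controls 269, 300, 309, 250 and 267 CPM. High-intensity library 1 lay within the control range, and the other 3 were below every other library of the 21. The difference was -0.66 on the log2 scale (SE 0.22, interval -1.11 to -0.22), at an edgeR adjusted p of 0.128, whereas Cyp26b1 in the same comparison had 0.14 (SE 0.20).

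Of the receptors, Rarg differed by 1.09 on the log2 scale (SE 0.47) between high intensity and control and Rxra by 0.13 (SE 0.20), at edgeR adjusted p of 0.246 and 0.808. Stra6, a retinol transporter, had 1.84 (SE 0.86, edgeR adjusted p = 0.294), with 3.58 to 16.4 CPM at high intensity against 0 to 6.92 in controls. Crabp1 lay between 7.31 and 30.0 CPM in all libraries, and its log2 fold changes ran from -0.17 to 0.38. Aldh1a2, which makes retinoic acid, did not exceed 5.79 CPM and was at 0 counts in 4 libraries.

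Markers of other cells also differed between the groups. The summed level of 6 dividing-cell markers was 348 to 972 CPM at high intensity, 233 to 647 CPM at low intensity and 210 to 274 CPM in controls. Of the 6, Mki67 and Top2a rose at high intensity against control (edgeR adjusted p = 0.0364 and 0.0448) and Top2a at low intensity (0.0372). These calls rest on few libraries, since 0 genes of the whole table were called at high intensity without library 1 or without library 3, 1 without library 2, and 2 at low intensity without library 1. The means of Gli2 (18.6 and 10.3 CPM) and Gli3 (30.1 and 17.8 CPM) at high intensity and in controls stand beside them. The summed 9 mesenchymal markers were 1790 to 3230 CPM at high intensity, 1174 to 4013 at low intensity and 1070 to 1868 in controls. Sums weigh abundant genes most and do not show that the genes of a list moved alike. The highest median over the 21 libraries was 1003 CPM for Vim in this list. It was 1661.5 for Gfap among the glial, 4592 for Nefl among the neuronal and 22.35 for Des among the muscle markers. The summed 8 astrocyte and oligodendrocyte markers were 3116 to 3946 CPM on the static array against 1870 to 2581 in controls, beside means of 107 and 73.9 CPM for Dhrs3 and 61.6 and 101 CPM for Crabp2. None of these 8 passed with edgeR, and 7 had an unadjusted p under 0.05, as did 12.6% of all genes. The dividing-cell sum on the static array was 331 to 485 CPM, with 0 of 6 called. The 14 motor neuron and neuron markers summed to 5046 to 7307 CPM at high intensity, 5970 to 8349 at low intensity, 7620 to 9730 on the static array and 7247 to 8119 in controls. Of these, the RNA-binding protein gene Elavl4 fell at low intensity (log2 fold change -0.59, SE 0.13, edgeR adjusted p = 0.0370) and the choline transporter gene Slc5a7 fell on the static array (-1.88, SE 0.31, edgeR adjusted p = 0.00392). The progenitor filament gene Nes and the mesenchymal and glial filament gene Vim rose at low intensity, by 1.43 (SE 0.33) and 1.01 (SE 0.22) on the log2 scale, at edgeR adjusted p of 0.0443 and 0.0352. The progenitor list did not rise with Nes: of 9 fitted, 4 had positive values at low intensity against control (median -0.06). At an unadjusted edgeR p under 0.05, 1 of them was higher and 1 lower. All 9 mesenchymal markers had positive values there (median 0.74). The 8 muscle markers summed to 16.3 to 171 CPM at high intensity and 8.46 to 66.9 CPM in controls. They summed to 6.47 to 140 CPM at low intensity, 6.03 to 107 on the static array and 5.19 to 24.8 in actuated libraries. Of the 3 that were fitted, all had positive values for high intensity against control (median 2.17), 2 had an unadjusted p under 0.05 and 0 passed. Des, which other contractile cells also express, ranged from 12 to 853 counts (1.32 to 166 CPM) over the 21 libraries of all groups. Myog, Ckm and Actc1 had at most 3 counts in any of these libraries. The part of these cells in the values of the 10 genes was not tested.

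On the TPM scale the comparison with controls differs, since protein-coding genes held 24.1 to 44.5% of TPM in the controls and 40.1 to 66.9% in the other groups. The RNAs Rn7s1 and Rn7s2 took 27.8 to 61.0% of TPM in controls and 11.9 to 32.7% elsewhere. With limma on log2(TPM + 1), the median over all genes moved by 0.50 at high intensity, 0.57 at low intensity and 0.46 on the static array against control, and 10.6%, 27.0% and 4.68% of genes were called. The other 2 comparisons called 0.0109% (actuated against static) and 0.00543% (high against low intensity). On that scale Smo and Rarb were called at high intensity, and Smo, Rara, Rarb and Dhrs3 at low intensity, against control. The calls test differences that include the median shift. These were 0.95 and 0.95 at high intensity and 0.97, 0.79, 0.80 and 0.87 at low intensity. Relative to the median shift, they were 0.45 and 0.45 at high intensity and 0.40, 0.22, 0.22 and 0.29 at low intensity. Of all genes called on that scale, 1944 were higher and 9 lower at high intensity, and 4949 and 31 at low intensity. With all 26 libraries in the edgeR fit, 0.0%, 0.0402%, 0.0268%, 0.0% and 0.0134% of genes were called in the 5 comparisons in the order above, and none of the 10 genes.

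The genes whose profile over the 21 libraries was most like that of Ptch1, by the root mean square difference of standardised log2 CPM among 9883 genes, were Ptprz1 (0.642), Shisa6 (0.650) and Snhg6 (0.712), where the median gene was at 1.41. Smo was 26th in that order, at 0.785. The genes most like Cyp26b1 were Slc7a2 (0.759), Svil (0.760) and Npr3 (0.764), with a median of 1.44. Libraries share depth and group in these values, which are a description only.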

How the data were processed

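RNA sequencing covered 26 libraries, made from 4 ng RNA each except for 8 that entered at full volume, and read as pairs of 50 bases, per the labels' protocols. The authors deposited estimated counts per gene, written as whole numbers, and TPM values that sum to 1000000 per library, each for 56941 genes. Per the submitters' processing notes, BWA 0.7.12-r1039, bedtools 2.25.0, STAR and Salmon were named along with the builds mm10, hg19 and GRCm39, without roles; which gave the counts, and whether strand was used, is not given in the sources used here.

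Tests used edgeR 4.0.16 (filterByExpr, TMM, quasi-likelihood F-test, all groups in 1 model) on rounded counts of the 21 libraries with over 1000000 protein-coding counts, with Benjamini-Hochberg adjustment over 14730 genes. Standard errors came from the fold change and F statistic, and 95% intervals from them. The script was tested on simulated data. Alternatives were DESeq2 1.42.0, its size factors, no filter, all 26 libraries, a block on the replicate number, a fit of only the groups compared, limma 3.58.1 on log2(TPM + 1) and log2(TPM + 0.1), and leaving out each library. The lowest chi-square per degree of freedom between replicates was 4.74, and no library was counted as a duplicate. Named genes were the 10, 14 pathway genes listed by symbol, any other listed gene that was called and the 3 nearest profiles; others were chosen after their values were seen. Some of the pathway genes are not reported here. The 10 genes, the lists and the depth minimum were chosen with earlier results of these data known.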

Additional observations from a re-analysis of the deposited data

Results flagged for a closer look

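Rara in control 3 stood at 32.3 CPM, where the other 4 deeper controls lay between 13.9 and 17.3 CPM, a gap of 0.815 of the group's range. It was 1 of 40 groups of values examined in this way, and chance flags about 1 in 20.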

How the results depend on the processing

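Of 828 values of the 10 genes under the alternatives, 739 kept their direction and side of the threshold, 74 changed sign without passing it in either fit and 15 passed it. For TPM, direction was taken relative to the median shift, and the side of the threshold from the test that includes the shift. Some values counted as kept had the other sign with the shift included. An example is Crabp2 for low intensity against control, at 0.12 on log2(TPM + 1) and -0.64 with edgeR. The count of the 10 called stayed at 0 except without the low-count filter (1 at low intensity and 2 on the static array, against control) and on log2(TPM + 1) and log2(TPM + 0.1) (2 and 2 at high intensity, 4 and 4 at low intensity, against control); the cause was not tested. Gli1 had at most 34 counts in a library, and its intervals hold both depth and spread between libraries. Leaving out single libraries gave 0 calls among the 10.

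Same-numbered libraries were not treated as paired. Their deviations correlated between -0.284 and 0.320 over the comparisons. For actuated against static the values were 0.219 for number 1, -0.169 for number 2 and 0.320 for number 4. Libraries of unlike number gave -0.308 to 0.167 in that comparison. Whether a number marks a shared origin was not tested. With the replicate number as a block, 0 of the 10 were called, the genes called over the table went to 2 at high intensity, 8 at low intensity and 36 on the static array against control, and values changed sign for Rara (-0.02 for actuated against static, -0.0013 for low intensity against control), Hhip (0.06 for low intensity against control) and Dhrs3 (0.11 for high against low intensity).

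Over the whole table, genes called moved as follows. For actuated against static they were 40 without the filter, 3 with DESeq2, and 2 and 1 on log2(TPM + 1) and log2(TPM + 0.1). For high intensity against control they were 6 with all 26 libraries, 700 without the filter, 452 with DESeq2, 17 with only the groups compared, and 1953 and 1986 on TPM. For low intensity against control the same settings gave 4, 660, 437, 21, 4980 and 5081, and for the static array against control 2, 459, 384, 42, 862 and 910. For high against low intensity they were 126 without the filter, 45 with DESeq2, and 1 and 1 on TPM. Leaving out 1 library gave 0 (without high intensity 1) to 397 (without high intensity 6) at high intensity, 2 (without low intensity 1) to 264 (without low intensity 3) at low intensity, and 18 (without static 4) to 141 (without control 6) on the static array, each against control, and 0 to 3 for high against low intensity.

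Changes of sign with all 26 libraries were those of Gli2 (-0.30) and Hhip (-0.31) for actuated against static, Rarb (-0.10) and Cyp26b1 (-0.01) for high intensity against control, Gli2 (0.08) for low intensity against control, Smo (-0.03) for high against low intensity, and Gli2 (0.46), Hhip (0.16) and Rara (0.07) for static against control. Without the filter, Rara for static against control was 0.09. On log2(TPM + 1) and log2(TPM + 0.1), relative to the median shift, Gli2 was -0.03 and -0.05 for actuated against static, 0.36 and 0.45 for low intensity against control and 0.02 and 0.09 for static against control. Rara was 0.07 and 0.01 for high intensity against control, Ptch1 -0.03 and -0.17 for low intensity against control, and Rarb 0.23 and 0.24 for high against low intensity. On 1 of these scales only, Hhip was 0.01 and Cyp26b1 0.01 for low intensity against control, and Hhip 0.09, Rara 0.07 and Rarb -0.15 for static against control.

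With single libraries left out, values that changed sign ranged as follows. For actuated against static, Gli2 ran from -0.08 to 0.75, Hhip from -0.15 to 0.38, Rara from -0.13 to 0.36 and Dhrs3 from -0.18 to 0.45. For high intensity against control, Rara ran from -0.22 to 0.19, Rarb from -0.03 to 0.19 and Dhrs3 from -0.05 to 0.26. For low intensity against control, Ptch1 ran from -0.01 to 0.22, Gli1 from -1.14 to 0.20, Gli2 from -0.21 to 0.22, Hhip from -0.40 to 0.15 and Rara from -0.01 to 0.36. For high against low intensity, Smo ran from -0.01 to 0.11, Rarb from -0.16 to 0.03 and Dhrs3 from -0.27 to 0.04. For static against control, Ptch1 ran from -0.23 to 0.01, Gli2 from -0.72 to 0.11, Hhip from -0.51 to 0.05 and Rara from -0.30 to 0.27. Gli1 could not be fitted with only the groups compared for low intensity and for static against control, where the filter removed it.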
